A study of Mus musculus with 12 samples.

Results

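The 9 genes Cebpa, Cebpb, Cebpd, Cebpe, Spi1, Gfi1, Irf8, Klf4 and Batf3 encode transcription factors that direct the differentiation of granulocytes, monocytes and dendritic cells. They were named by gene symbol with no threshold on their values, though with earlier results of these data known, and are 9 of 20289 genes named by a probe and 9 of 11472 genes that could be tested. Together they have 16 probes, of which 15 were above background on at least 3 of 12 arrays, and each gene is described by its brightest such probe unless another is named. Labelled RNA from bone marrow of mice aged 3 months was hybridized to Illumina bead arrays, where the brightness of a probe stands for the level of its transcript. There were 4 groups of 3 arrays. The SCF group holds CD117+ cells treated with stem cell factor (SCF), the ligand of the receptor CD117 (c-Kit), at 3 μg per ml for 48 h. The U and C groups are CD117+ cells without SCF, told apart by nothing in the labels but the letter in their titles, and the A group is CD117− cells. The methods describe all CD117+ and CD117− cells as coming from β-globin/GFP mice, which carry a fusion of a human β-globin intron and GFP, from 3 mice, with each replicate from a separate mouse. They name no treatment there, so it is not stated whether the SCF and U samples are covered, nor whether U and C cells were cultured alike. If they are not, the p-values of those samples rest on a spread that may be purely technical. Each sample is a mixture of cell types, so fewer cells of a type and less RNA per cell cannot be told apart.

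C/EBPα and PU.1 (the product of Spi1) open the myeloid programme in progenitors, and C/EBPε together with Gfi1 drives the later steps of granulocyte maturation. Irf8 and Klf4 are known for the monocyte branch, and Irf8 and Batf3 for the conventional dendritic cells that cross-present antigen. C/EBPβ and C/EBPδ are induced by cytokines and by infection, when C/EBPβ takes part in emergency production of granulocytes.

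Promoters were printed for the members that moved together between the CD117+ sets. Irf8 and Klf4 were lower, and Cebpb and Batf3 higher, in U over C and in SCF over C. Each run holds the 250 bases before the annotated start of the gene, 5′ to 3′ on the strand of the gene, from RefSeq on GRCm38.p6. The window of Irf8 lies at chr8:120736108-120736357 on the plus strand, and that of Klf4 at chr4:55532476-55532725 on the minus strand. The window of Cebpb lies at chr2:167688665-167688914 on the plus strand, and that of Batf3 at chr1:191098164-191098413 on the plus strand. Capitals mark matches to 4 motifs searched on both strands, namely TTGCNNAA for C/EBP factors, GAGGAA for PU.1, GAAANNGAA for interferon regulatory factors and TTCNNNGAA for STAT factors.
Irf8: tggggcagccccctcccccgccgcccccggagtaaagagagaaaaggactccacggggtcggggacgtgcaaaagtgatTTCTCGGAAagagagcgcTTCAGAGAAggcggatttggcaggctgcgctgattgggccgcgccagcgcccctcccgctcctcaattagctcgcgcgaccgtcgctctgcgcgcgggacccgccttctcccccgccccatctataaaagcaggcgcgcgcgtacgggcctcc
Klf4: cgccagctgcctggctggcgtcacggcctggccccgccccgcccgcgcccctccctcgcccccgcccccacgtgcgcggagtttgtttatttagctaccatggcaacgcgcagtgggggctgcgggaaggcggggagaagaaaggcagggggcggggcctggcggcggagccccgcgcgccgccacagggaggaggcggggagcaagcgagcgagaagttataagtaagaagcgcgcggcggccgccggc
Cebpb: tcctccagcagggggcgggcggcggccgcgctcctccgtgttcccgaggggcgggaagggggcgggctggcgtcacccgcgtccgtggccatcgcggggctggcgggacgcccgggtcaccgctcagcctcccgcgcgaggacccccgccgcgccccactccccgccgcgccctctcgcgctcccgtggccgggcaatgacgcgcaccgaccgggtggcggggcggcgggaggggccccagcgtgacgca
Batf3: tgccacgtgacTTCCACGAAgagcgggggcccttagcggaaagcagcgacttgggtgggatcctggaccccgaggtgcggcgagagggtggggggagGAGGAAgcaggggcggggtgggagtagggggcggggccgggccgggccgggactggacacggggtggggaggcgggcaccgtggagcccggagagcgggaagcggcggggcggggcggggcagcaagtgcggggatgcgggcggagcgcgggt

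In these windows Irf8 held 2 matches to the STAT motif, and Batf3 held 1 match to it and 1 to the PU.1 motif. Klf4 and Cebpb held 0 matches to the 4 motifs. Of 32851 promoter windows of the same length, 7.02% held the STAT motif, 23.3% the PU.1 motif, 9.56% the C/EBP motif and 7.13% the interferon regulatory factor motif. The windows are rich in G and C, with 67.2% for Irf8, 74% for Klf4, 81.6% for Cebpb and 76% for Batf3, against a median of 52.4% over all windows. Promoters were matched for 6 members, and a second annotated start of Irf8 held no match to the 4 motifs. Of the members not printed, Gfi1 held 1 match to the C/EBP motif before 1 of its annotated starts, and Cebpa held 0 matches.

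Between the fractions, Cebpe separated C from A cells by the widest margin among the members. In C over A, 2 members were higher (Cebpa and Irf8), 5 were lower (Cebpb, Cebpe, Spi1, Gfi1 and Batf3) and 2 did not pass the test (Cebpd and Klf4). Of all genes 29.6% were higher and 21.3% were lower in this comparison, and the median log2 fold change was -0.68 over the members and 0.07 over all genes. A call here means an adjusted p under 0.05 in limma over 11472 genes. Another scaling of the arrays, to a common median in place of quantile normalization, moved the median of all genes to 0.49 and the share of called genes that were higher from 58.1% to 85.4%, with 3 members higher and 3 lower.

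With SCF, Irf8, Klf4 and Batf3 were lower than in U cells and Gfi1 was higher, while the other 5 members did not pass the test in SCF over U. Among all genes 14.1% were higher and 13.7% lower, and the median was -0.16 over the members and 0.02 over all genes. Cebpb and Batf3 were higher in U than in C cells, both groups without SCF, and Irf8 and Klf4 were lower. In that comparison 28.5% of all genes were higher and 28.5% lower, so 4 called members of 9 lie below the share over all genes. In SCF over C, 4 members were higher (Cebpb, Spi1, Gfi1 and Batf3) and 2 lower (Irf8 and Klf4), against 24.6% and 21.9% of all genes. The median over the members was 0.13 in U over C and 0.35 in SCF over C, with -0.01 over all genes in each. With median scaling the share of called genes that were higher was 61% in place of 50% in U over C and 73.8% in place of 52.9% in SCF over C, where the median of all genes became 0.18. These comparisons share arrays, and U over C and SCF over C also cross the sets that the authors normalized apart, so differences between the sets and between the groups cannot be told apart there.

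**Figure D1:**
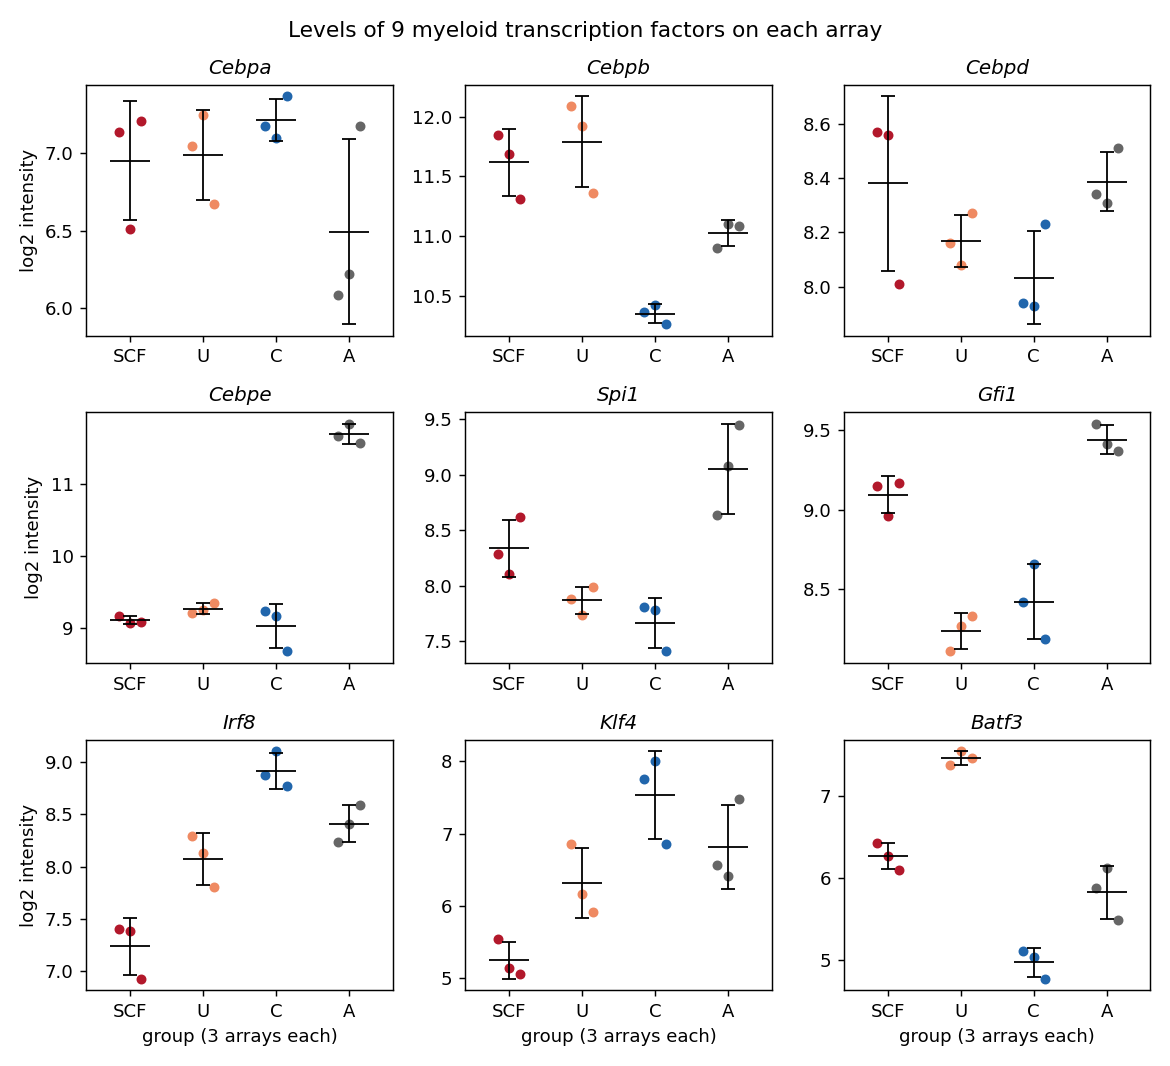
Log2 intensity of each member (y axis, a scale of its own in each panel) on the 3 arrays of the SCF, U, C and A groups (x axis). Points are arrays, and bars are the mean ± SD; Cebpe stands highest on the A arrays (11.57 to 11.84), Klf4 lowest on the SCF arrays (5.06 to 5.54) and Batf3 highest on the U arrays (7.37 to 7.54).

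Among the C/EBP factors, Cebpa, the factor of early myeloid commitment, differed between C and A cells and passed the test in no comparison between CD117+ sets. Its log2 intensity was 7.14, 6.51 and 7.21 on the SCF arrays, 7.05, 7.25 and 6.67 on the U arrays, 7.18, 7.10 and 7.37 on the C arrays, and 6.08, 6.22 and 7.18 on the A arrays. A cells were low on 2 arrays, while the third reached the C range, so the groups overlap. Cebpa was 1.65-fold higher in C than in A cells (log2 fold change 0.72 ± 0.26 SE, adjusted p = 0.0287 from limma). The call was lost without replicate 1 of A (0.52, adjusted p = 0.139), replicate 2 of A (0.59, adjusted p = 0.109), replicate 1 of C (0.74, adjusted p = 0.0602) or replicate 3 of C (0.65, adjusted p = 0.0895), and in the limma fit of the 6 arrays compared (adjusted p = 0.0519). Without replicate 3 of A the log2 fold change was 1.07. SCF over U gave a log2 fold change of -0.03 with a 95% interval of -0.59 to 0.52. Its mean level ran from C (7.21) over U (6.99) and SCF (6.95) to A (6.49), and no neighbours in this order differed.

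Cebpb, a cytokine-induced factor of macrophages and granulocytes, differed mainly between C cells and the other CD117+ sets. It stood at 11.85, 11.69 and 11.31 on the SCF arrays, 12.09, 11.92 and 11.36 on the U arrays, 10.36, 10.42 and 10.26 on the C arrays, and 10.90, 11.10 and 11.08 on the A arrays. The C arrays were below every other array, and the U and SCF arrays were above the A arrays. Cebpb was 2.73-fold higher in U than in C cells (log2 fold change 1.45 ± 0.17 SE, adjusted p = 1.51e-06 from limma) and 2.41-fold higher in SCF than in C cells (1.27, adjusted p = 9.42e-06). In C over A it was 1.60-fold lower (-0.68, adjusted p = 0.00275), a call that median scaling ended (-0.02, adjusted p = 0.925), where Cebpb lay 0.51 below the median of all genes against 0.75 below it here. SCF over U gave -0.18 with a 95% interval of -0.53 to 0.18. The order of the means was U, SCF, A and C, in which U and SCF did not differ.

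Cebpd, an acute-phase member of the family, stayed within a narrow range. Its log2 intensity was 8.57, 8.56 and 8.01 on the SCF arrays, 8.16, 8.08 and 8.27 on the U arrays, 7.94, 7.93 and 8.23 on the C arrays, and 8.34, 8.31 and 8.51 on the A arrays. Each A array lay above each U and C array, and the SCF arrays spread over the whole range. None of the 4 comparisons passed the test, and the change nearest to it was C over A with a log2 fold change of -0.35 (95% interval -0.70 to 0.00, adjusted p = 0.0864 from limma). It turned to 0.38 with median scaling (adjusted p = 0.0851), where Cebpd lay 0.11 below the median of all genes against 0.42 below it here. The change passed as lower with array weights (-0.36, adjusted p = 0.0297) and without replicate 3 of SCF (-0.35, adjusted p = 0.0386). In SCF over C the log2 fold change was 0.35 (adjusted p = 0.0955). It passed without replicate 3 of SCF (0.53, adjusted p = 0.00938), the lowest of the SCF arrays, and with median scaling (0.63, adjusted p = 0.00976). The order was A, SCF, U and C, and no neighbours differed. The second probe of Cebpd was above background on 0 of 12 arrays and was not tested.

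Cebpe, the factor of terminal granulocyte differentiation, was at 9.17, 9.07 and 9.08 on the SCF arrays, 9.20, 9.25 and 9.35 on the U arrays, 9.24, 9.16 and 8.67 on the C arrays, and 11.67, 11.84 and 11.57 on the A arrays. The A arrays stood more than 2 log2 units above all CD117+ arrays, and the CD117+ sets lay close together. It was 6.36-fold lower in C than in A cells (log2 fold change -2.67 ± 0.14 SE, adjusted p = 1.65e-10 from limma). In SCF over U the log2 fold change was -0.16 (95% interval -0.46 to 0.14), in U over C 0.24 (-0.06 to 0.54) and in SCF over C 0.08 (-0.23 to 0.38). A and U, the first neighbours in the order A, U, SCF and C, differed at an adjusted p of 2.93e-10 from limma, and the CD117+ sets did not differ from their neighbours. Over U over A and SCF over A, which were fitted only for the order of the levels, 60.1% and 61.7% of all genes were called.

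**Figure D2:**
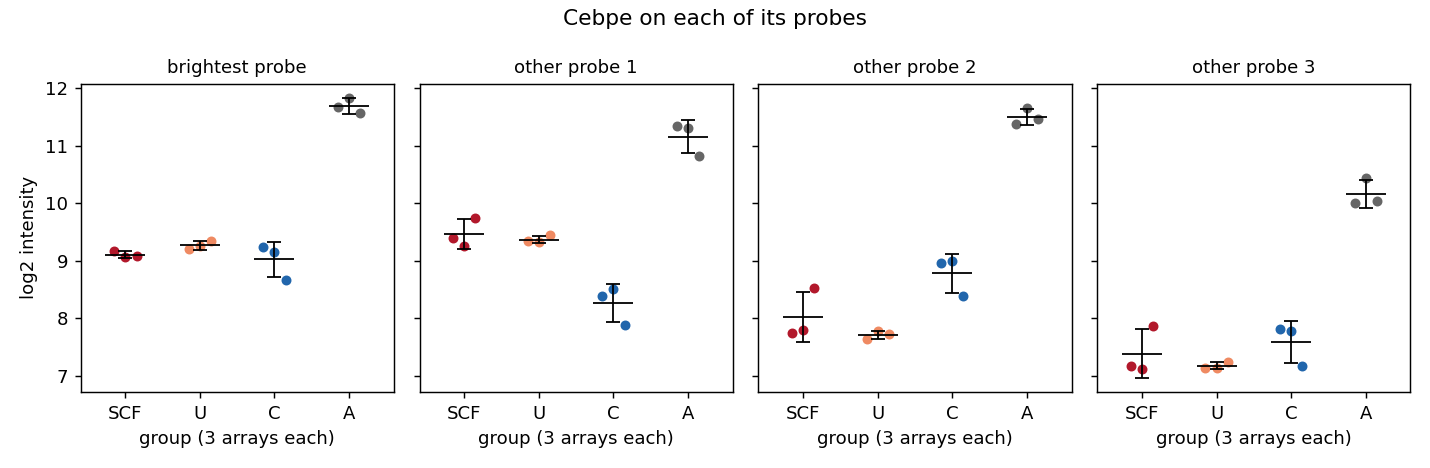
Log2 intensity (y axis) of Cebpe on each of its 4 probes in the SCF, U, C and A groups (x axis, 3 arrays each), with the mean ± SD. The A arrays are highest on each probe, while the place of the C arrays against the U and SCF arrays differs between probes.

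Cebpe is the member with the most probes, and its probes disagreed about the CD117+ sets. In a limma fit of 17712 probes, in which 47.6% of probes were called in C over A, all 4 probes were lower in C than in A cells, with log2 fold changes of -2.67, -2.91, -2.72 and -2.58 in the order of the plot of the Cebpe probes. In U over C, where 56% of probes were called, the brightest probe gave 0.24 and did not pass, the first of the others was higher (1.11, adjusted p = 5.93e-05), the second was lower (-1.07, adjusted p = 0.000216) and the third did not pass (-0.41). SCF over C, with 45.7% of probes called, gave the same division, with 0.08, 1.21, -0.76 and -0.20. In SCF over U, with 25.1% of probes called, no probe of Cebpe passed. The change on another probe was set against that on the brightest probe in 24 differences over Cebpe, Klf4 and Batf3. Of these 11 reached the smallest two-sided exact permutation p that 3 against 3 arrays allow, 0.1, which was 0.218 after adjustment. The level of Cebpe in C against the other CD117+ sets has no settled direction on these arrays, while its higher level in A cells was seen on each of 4 probes.

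Spi1, which encodes PU.1, an ETS factor that myeloid and B cells need, was also highest in A cells. It stood at 8.29, 8.11 and 8.62 on the SCF arrays, 7.88, 7.74 and 7.99 on the U arrays, 7.81, 7.78 and 7.41 on the C arrays, and 8.64, 9.08 and 9.45 on the A arrays. The lowest A array barely exceeded the highest SCF array, and the U and C arrays overlapped. Spi1 was 2.62-fold lower in C than in A cells (log2 fold change -1.39 ± 0.20 SE, adjusted p = 1.67e-05 from limma). Each SCF array lay above each U array, with a log2 fold change of 0.47 that did not pass (95% interval 0.05 to 0.89, adjusted p = 0.087). In SCF over C it was 1.59-fold higher (0.67, adjusted p = 0.00996), a call lost without replicate 3 of SCF (0.53, adjusted p = 0.0505) or replicate 3 of C (0.54, adjusted p = 0.055). From A the order ran to SCF, U and C, and only A and SCF among these neighbours differed (adjusted p = 0.00445).

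Gfi1, a repressor that favours granulocytes over monocytes, was at 9.15, 8.96 and 9.17 on the SCF arrays, 8.11, 8.27 and 8.33 on the U arrays, 8.42, 8.66 and 8.19 on the C arrays, and 9.54, 9.41 and 9.37 on the A arrays. SCF arrays stood clear of the U and C arrays and just under the A arrays. It was the member that rose with SCF, 1.81-fold higher in SCF than in U cells (log2 fold change 0.85 ± 0.14 SE, adjusted p = 0.000292 from limma). It was 1.59-fold higher in SCF than in C cells (0.67, adjusted p = 0.000987) and 2.02-fold lower in C than in A cells (-1.02, adjusted p = 1.51e-05). The last call was lost with median scaling (-0.29, adjusted p = 0.165), where Gfi1 lay 0.78 below the median of all genes against 1.09 below it here. U over C gave -0.18 (95% interval -0.49 to 0.12). The order was A, SCF, C and U, in which C and U did not differ and A and SCF differed at an adjusted p of 0.0437.

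Irf8, the interferon regulatory factor of monocyte and dendritic progenitors, was lowest on the SCF arrays. Its log2 intensity was 7.40, 7.38 and 6.92 there, 8.29, 8.13 and 7.80 on the U arrays, 8.88, 9.11 and 8.77 on the C arrays, and 8.24, 8.41 and 8.59 on the A arrays. The SCF, U and C arrays did not overlap, and the A arrays overlapped with the U arrays. Irf8 was 1.79-fold lower in SCF than in U cells (log2 fold change -0.84 ± 0.17 SE, adjusted p = 0.00171 from limma), 1.80-fold lower in U than in C cells (-0.85, adjusted p = 0.000523) and 3.23-fold lower in SCF than in C cells (-1.69, adjusted p = 5.43e-07). In C over A it was 1.42-fold higher (0.50, adjusted p = 0.0232), a call lost without replicate 1 of A (0.42, adjusted p = 0.0929), replicate 2 of A (0.50, adjusted p = 0.0503) or replicate 2 of C (0.41, adjusted p = 0.109). In the order C, A, U and SCF, only A and U did not differ.

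Klf4, a zinc finger factor of the monocyte branch, was dim with SCF. It stood at 5.54, 5.14 and 5.06 on the SCF arrays, where the dimmest signal above background was 4.64 to 4.66. On the other arrays it was at 6.86, 6.17 and 5.92 in U cells, 7.76, 8.00 and 6.85 in C cells, and 6.56, 6.41 and 7.48 in A cells. Every SCF array lay below every other array, and the highest U array (6.86) just exceeded the lowest C array (6.85). Klf4 was 2.10-fold lower in SCF than in U cells (log2 fold change -1.07 ± 0.32 SE, adjusted p = 0.018 from limma). That call was lost without replicate 1 of U (-0.80, adjusted p = 0.106), replicate 2 of SCF (-1.02, adjusted p = 0.0573) or replicate 3 of SCF (-0.98, adjusted p = 0.0693), and with no background correction (-0.45, adjusted p = 0.0868). It was 2.33-fold lower in U than in C cells (-1.22, adjusted p = 0.00342) and 4.89-fold lower in SCF than in C cells (-2.29, adjusted p = 1.50e-05). In C over A the log2 fold change of 0.72 did not pass (adjusted p = 0.0694). It passed without replicate 3 of A (1.05, adjusted p = 0.0101) or replicate 3 of C (1.06, adjusted p = 0.0104), with the mean of its probes (0.71, adjusted p = 0.0175) and with median scaling (1.35, adjusted p = 0.00346). The order was C, A, U and SCF, as for Irf8, and only U and SCF among neighbours differed.

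The other probes of Klf4 pointed in the same direction in each of the 4 comparisons. They gave -0.68 (adjusted p = 0.0529, not passed) and -1.16 (adjusted p = 0.000978) in SCF over U, -1.30 and -0.60 in U over C and -1.98 and -1.77 in SCF over C, the last 4 values past the test. In C over A they gave 0.56 (adjusted p = 0.0712) and 0.86, of which the second passed (adjusted p = 0.0039). The first of them was also lower in U than in A cells (-0.73, adjusted p = 0.0174), which the brightest probe did not pass (-0.50). The second gave 0.26 in U over A (adjusted p = 0.331), so the order of A and U is not settled for Klf4.

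Batf3, a basic leucine zipper factor of dendritic and T cells, differed between all 4 groups. It was at 6.42, 6.27 and 6.10 on the SCF arrays, 7.37, 7.54 and 7.46 on the U arrays, 5.11, 5.03 and 4.77 on the C arrays, and 5.87, 6.12 and 5.48 on the A arrays. The C arrays were just above the dimmest signal above background (4.63 to 4.67), and U arrays stood clear above all others. Batf3 was 5.61-fold higher in U than in C cells (log2 fold change 2.49 ± 0.18 SE, adjusted p = 5.28e-09 from limma). It was 2.29-fold lower in SCF than in U cells (-1.20, adjusted p = 0.000126), yet 2.45-fold higher in SCF than in C cells (1.29, adjusted p = 1.61e-05). C over A gave a 1.81-fold lower level (-0.85, adjusted p = 0.000783). All neighbours in the order U, SCF, A and C differed, with SCF and A at an adjusted p of 0.0433, a difference that its second probe did not pass (log2 fold change 0.15, adjusted p = 0.474). Its second probe was called in the same direction in each of the 4 comparisons, with -0.56 in C over A, -1.02 in SCF over U, 1.73 in U over C and 0.71 in SCF over C, and was above background on 1 of 3 C arrays.

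**Figure D3:**
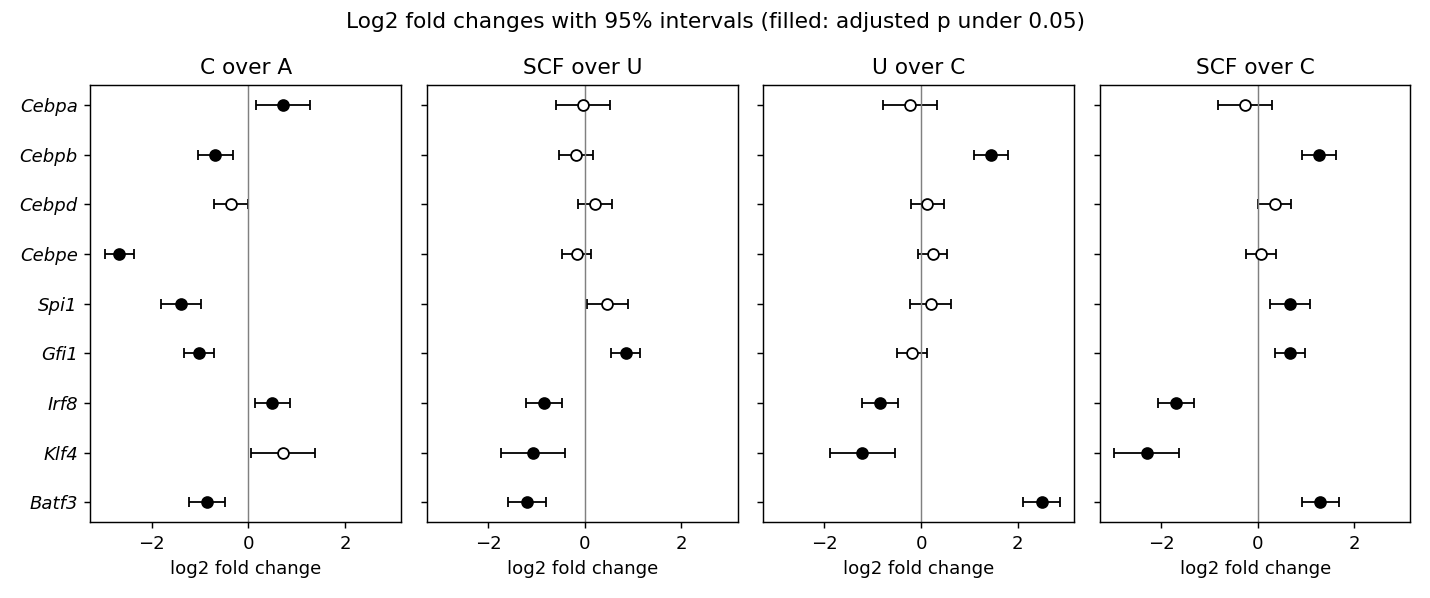
Log2 fold change (x axis) of each member (y axis) with its 95% interval from limma in C over A, SCF over U, U over C and SCF over C; filled points passed at an adjusted p under 0.05. Cebpe is farthest from 0 in C over A (-2.67), Batf3 in U over C (2.49) and Klf4 in SCF over C (-2.29).

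Across the 12 arrays the levels of Irf8 and Klf4 correlated at r = 0.95, Cebpb and Batf3 at 0.87, Spi1 and Gfi1 at 0.86, and Cebpe and Spi1 at 0.83 (Pearson, as a description, since arrays of a group share their condition and the value is set mostly by the group means). The genes whose levels were most like Cebpe were Nlrp12, Pgbd5 and Asprv1 (r = 0.991 each). Of 12 arrays, Nlrp12 was above background on 6, Pgbd5 on 3 and Asprv1 on 10, so these values rest in part on arrays near the floor. Most like Klf4 were Mfhas1, Anks6 and Irf8 (r = 0.952 each, with Anks6 above background on 6 arrays), and most like Irf8 were Klhl42 (0.961), Mfhas1 (0.959) and Cd3g (0.958).

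Genes that mark the granulocyte, monocyte and dendritic branches were described as lists. The lists named for granule genes also hold other genes of their stages. Examples are Calr and Ms4a3 in the promyelocyte list and the receptors Cxcr2, Il1r2 and Ltb4r1 in the later list. Beside the counts of each list below stand the shares over all genes. These were 29.6% higher and 21.3% lower in C over A and 14.1% and 13.7% in SCF over U. They were 28.5% and 28.5% in U over C and 24.6% and 21.9% in SCF over C. Of 15 genes in the list of promyelocytes, the stage of primary granules, 1 was higher, 5 were lower and 9 did not pass in C over A. The largest falls were those of Fcnb (a ficolin, log2 fold change -4.34), Hp (haptoglobin, -2.28) and Lyz2 (lysozyme, -1.90). Ctsg was the 1 higher (0.48), and Mpo (-0.03), Elane (-0.12) and Prtn3 (0.10) were among those that did not pass. With SCF 7 of the list were higher and 2 lower than in U cells (median 0.41, against 0.02 for all genes). Ms4a3, a marker of granulocyte and monocyte progenitors, was 2.51-fold higher and Prtn3, proteinase 3, 1.97-fold higher, while Fcnb had a log2 fold change of -0.94 and was lower. U over C had 4 higher and 8 lower, and in SCF over C 6 and 3.

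Of 16 genes in the list of myelocytes and neutrophils, whose granules appear later, 14 were lower and 2 did not pass in C over A (median -5.10). The largest falls were those of Camp, the cathelicidin precursor (-8.48), Ltf, lactoferrin (-8.16), and Lcn2, a siderophore-binding lipocalin (-7.30). Cebpe, Gfi1 and Spi1 were lower in the same cells. In U over C 14 of the list were higher and 2 did not pass (median 1.39), and in SCF over C 11 were higher and 5 did not pass (median 1.48), comparisons in which the brightest probe of Cebpe did not pass. Spi1 and Gfi1 did not pass in U over C and were higher in SCF over C. Of the same genes 3 were higher and 5 lower in SCF over U (median -0.17), and 5 in all were called with median scaling or without replicate 2 of SCF. The interleukin-1 decoy receptor Il1r2 was 7.64-fold higher, Mmp8, neutrophil collagenase, was 1.69-fold higher, and Retnlg had a log2 fold change of -2.10 and was lower.

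Among 16 genes of monocytes and macrophages 11 were lower and 5 did not pass in C over A (median -0.67; 7 called with median scaling), including Treml4 (-2.48, above background on 2 of 3 C arrays), the macrophage antigen Adgre1 (-1.81) and the mannose receptor Mrc1 (-1.81). SCF over U had 2 higher and 6 lower (median -0.29). Apoe, apolipoprotein E, had a log2 fold change of -2.43 and Mrc1 of -1.34, both lower, while Cd14, the lipopolysaccharide co-receptor, was 2.35-fold higher. In U over C 11 were higher and 4 lower (median 1.48) and in SCF over C 9 and 4 (median 1.22), where Irf8 and Klf4 were lower. The 4 lower genes were Ly6c1, Cx3cr1, F13a1 and Ccr2 in both comparisons. In U over C, Ly6c1 was at -1.39, Cx3cr1 at -1.10 and F13a1 at -0.68. Ccr2 was above background on no U array and was at least 3.37-fold lower in U than in C cells. The largest rises of the list in U over C were those of Adgre1 (4.59) and Mrc1 (4.47).

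Of 13 dendritic cell genes 2 were higher and 6 lower in C over A (median -0.53), with the class II genes H2-Eb1 (-2.95) and H2-Ab1 (-2.75) and the plasmacytoid marker Siglech (-2.15) lower. The 2 higher were Clec9a (1.36) and Zbtb46 (1.74), the latter above background on 2 of 3 A arrays. In SCF over U 1 was higher and 3 were lower (median -0.01), namely Ly6d (-1.33), Siglech (-1.13) and Clec9a, a receptor of cross-presenting dendritic cells. Clec9a was above background on 0 of 3 SCF arrays and at least 1.36-fold lower (adjusted p = 0.00255 from limma, with a measured mean log2 intensity of 4.35 in SCF cells and 5.10 in U cells). In U over C 8 were higher and 3 lower (median 0.59), and in SCF over C 6 and 4 (median 0.30). The 3 lower in U over C were Clec9a (-1.67), H2-Eb1 (-1.89) and Zbtb46, above background on no U array and at least 3.77-fold lower. Those 3 and Ly6d were lower in SCF over C. The largest rise of the list in U over C was that of H2-Ab1 (3.88), a class II gene and so not confined to dendritic cells.

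**Figure D4:**
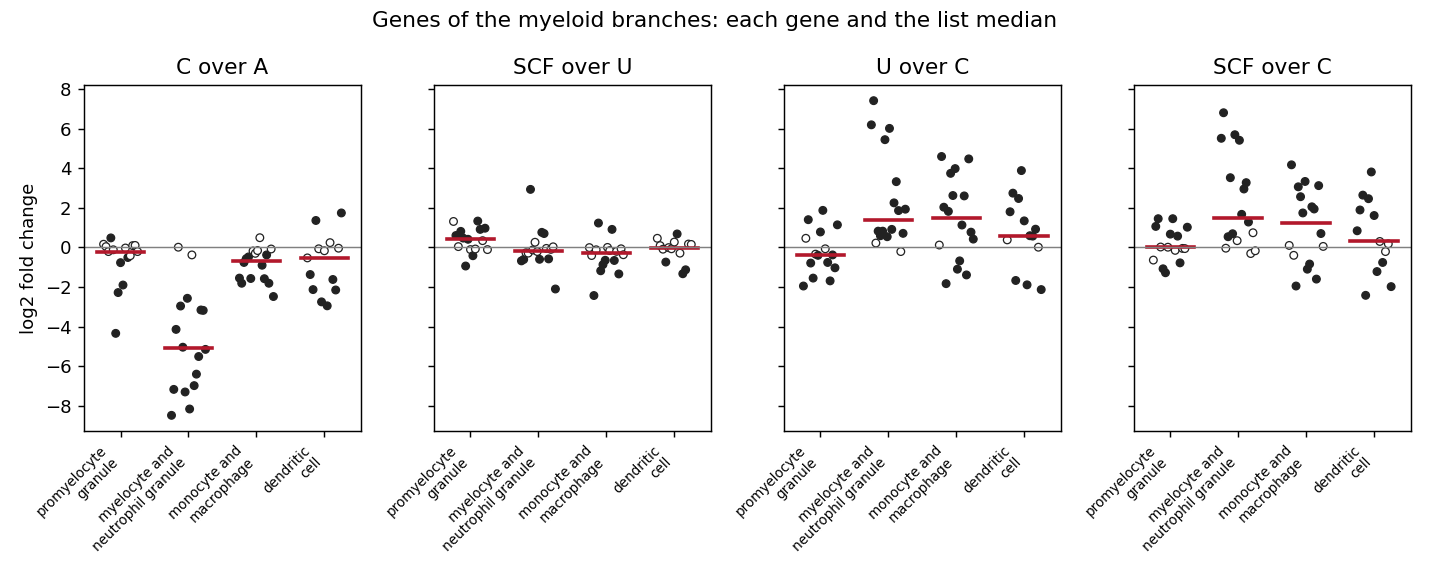
Log2 fold change (y axis) of each gene of 4 lists of the myeloid branches (x axis) in C over A, SCF over U, U over C and SCF over C, with filled points at an adjusted p under 0.05 and a bar at the median of the list. The myelocyte and neutrophil granule list has a median of -5.10 in C over A and 1.39 in U over C.

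Of 10 cytokine receptors of the myeloid branch 2 were higher and 4 lower in C over A, 1 and 3 in SCF over U, 5 and 1 in U over C and 3 and 2 in SCF over C. Csf3r, the receptor of the granulocyte factor G-CSF, was lower in C than in A cells (log2 fold change -2.46), as was Csf2ra (-0.96, lost with median scaling at -0.26), and Csf2rb2, above background on 1 of 3 A arrays, was 2.15-fold higher, a call lost with no background correction (0.38, adjusted p = 0.0538). Csf2rb was 2.06-fold higher in SCF over U, a call lost without replicate 3 of U (0.89, adjusted p = 0.0584), and Il6ra (-1.05) and Csf1r, the receptor of the macrophage factor (-0.87), were lower.

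Among 30 other transcription factors of the myeloid branch 5 were higher and 12 lower in C over A, 5 and 10 in SCF over U, 14 and 6 in U over C and 13 and 7 in SCF over C. Gata2, a factor of stem cells and mast cells, was 9.58-fold higher in C than in A cells, and Spib, an ETS factor close to PU.1 (-3.22, above background on 2 of 3 C arrays), and Klf2 (-2.84) were lower. Lower in SCF over U were Zeb2 (-1.36), Klf2 (-1.22) and Egr2, a factor that favours macrophages (-1.11).

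Markers of mature cells differed between the groups, though not always in the direction of the members of their branch. All 10 monocyte and macrophage markers and all 10 dendritic cell markers are also in the lists of those branches above. Their counts and sums therefore describe the same genes again and are no second observation. Of 9 neutrophil markers, 6 of which are also in the granule list, 8 were lower in C over A, and their summed linear intensity was 1646 to 3088 on the C arrays and 79840 to 90810 on the A arrays. It was 24271 to 26810 on the SCF arrays and 28959 to 31708 on the U arrays, with 8 of 9 higher in U over C and 7 of 9 in SCF over C. Spi1, Gfi1 and the brightest probe of Cebpe did not pass in U over C, while Spi1 and Gfi1 were higher in SCF over C (log2 fold change 0.67 each). Mmp8 and Itgam were above background on no C array. The 10 monocyte and macrophage markers summed to 4493 to 9131 on the SCF arrays, 8485 to 12999 on the U arrays, 3264 to 4175 on the C arrays and 3381 to 5120 on the A arrays, with 2 higher and 3 lower in SCF over U, 7 higher and 3 lower in U over C and in SCF over C, and 6 lower in C over A. Irf8 and Klf4 were lower in U over C and in SCF over C, as were the markers Ccr2, Cx3cr1 and F13a1. Ccr2, a chemokine receptor of monocytes, was above background on no SCF and no U array, and Ms4a6c on no C array. The part of these cells in the members' differences was not tested.

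The 6 dendritic cell markers measured summed to 8276 to 9463 on the SCF arrays, 7507 to 9216 on the U arrays, 1735 to 2379 on the C arrays and 4640 to 6500 on the A arrays. These sums rest mostly on Cd74 and H2-Ab1, at mean log2 intensities of 12.47 and 11.32 in U cells and 10.66 and 7.44 in C cells. Both are genes of class II presentation, which is not confined to dendritic cells, so the sums do not measure that cell type alone. In C over A 2 of the markers were higher, Clec9a and Zbtb46, and 3 were lower. In U over C 4 of the markers were higher and 2 lower, the latter Clec9a and Zbtb46. In SCF over U 2 were lower, Siglech and Clec9a, and 4 did not pass. Flt3, Itgax, Xcr1 and Cd209a were above background on fewer than 3 of 12 arrays, Clec9a on no SCF array, Zbtb46 on no U array and H2-Aa on no C and no A array. Markers of other lineages also moved with SCF, as 6 of 6 eosinophil markers (2422 to 2698 on the SCF arrays and 17382 to 20369 on the U arrays) and 8 of 9 megakaryocyte and platelet markers (20837 to 21847 and 53261 to 55818) were lower. Erythroid markers followed, with 6 of 9 lower in SCF over U (10792 to 13800 on the SCF arrays and 27696 to 29330 on the U arrays). Of 6 T and NK cell markers 1 was higher and 4 were lower, with a sum of 1325 to 1745 on the SCF arrays and 1050 to 1441 on the U arrays. The higher one was Nkg7, which is also in the promyelocyte list. It carries much of that sum, at a mean log2 intensity of 10.2 in SCF and 9.3 in U cells. In the C arrays the megakaryocyte and platelet markers summed to 8857 to 12946, with 8 of 9 higher in U over C, and the erythroid markers to 38034 to 44900, with 6 of 9 lower in U over C. The erythroid markers summed to 85811 to 87551 on the A arrays, with 7 of 9 lower in C over A. All 6 B cell markers, a lineage that also uses Spi1, were lower in C over A (643 to 813 on the C arrays and 7699 to 10744 on the A arrays). Their part in the members' differences was not tested either.

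As a check of the labels, 6 of 7 stem and progenitor markers were higher in C over A (5480 to 6005 on the C arrays and 938 to 1370 on the A arrays). Kit, the gene of CD117 and 1 of these markers, stood 4.46-fold higher in C than in A cells (adjusted p = 4.94e-09 from limma). The sum rests mostly on Kit and Gata2, at mean log2 intensities of 11.5 and 10.99 in C cells, so the sum and Kit are not separate checks. Kit was also higher in SCF than in A cells (2.54-fold, adjusted p = 7.98e-07) and in U than in A cells (1.82-fold, adjusted p = 0.000107). Among the CD117+ sets it was 1.75-fold lower in SCF than in C cells (adjusted p = 0.000308), 2.45-fold lower in U than in C cells (adjusted p = 1.56e-06) and 1.40-fold higher in SCF than in U cells (adjusted p = 0.0236). Probes above background numbered 17866 to 18027 on the SCF arrays, 17786 to 18081 on the U arrays, 17719 to 18248 on the C arrays and 16210 to 17394 on the A arrays, the highest of the last on replicate 3 of A. Within that group Cebpa, Cebpd, Spi1, Irf8 and Klf4 were highest on replicate 3, and Cebpe, Gfi1 and Batf3 were lowest on it. Median raw intensities ran from 103 to 110 on the SCF arrays, 100.2 to 103 on the U arrays, 96.6 to 97.5 on the C arrays and 87 to 93.2 on the A arrays. The number of arrays limits the precision.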

How the data were processed

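The 12 samples were grouped by their titles and cell type labels. For 45281 probes the authors deposited raw array intensities, neither background-corrected nor normalized, each with a detection p-value. The authors also deposited processed intensities, which were quantile normalized in 2 separate sets (A with C, and U with SCF), and these served as an alternative only. The array model is not stated in these sources. Their methods mention sequencing and count data, while the files hold array intensities. Intensities were background-corrected and quantile normalized with neqc (offset 16, normexp from the detection p-values) and taken to log2. A probe was kept where its detection p was under 0.05 on 3 or more arrays, which left 17712 probes with a symbol. Of all probes 35784 had 1 symbol in the platform table, 0 several and 9497 none. The brightest probe stood for each of 11472 genes. Groups were compared with lmFit and eBayes (trend, 4 group means, 8 residual degrees of freedom) in limma 3.58.1 (R 4.3.3), with Benjamini-Hochberg adjustment over all genes. The fit was tested on simulated data. Figures used matplotlib 3.10.9 (Python 3.11.15). Beside the members and Kit, the text names the 3 genes most like Cebpe, Klf4 and Irf8, and up to 3 called genes of each list with the largest change and arrays that do not overlap in C over A and SCF over U. Other list genes were named after their values were seen, to show how a list was divided. The members and lists were chosen with earlier results of these data known. The alternatives were other normalizations, filters, probes, samples, array weights, a fold threshold, the replicate block and leaving out each array. The authors' processed values gave no value for U over C and SCF over C, which cross the 2 sets.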

Additional observations from a re-analysis of the deposited data

How the results depend on the processing

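Of 774 values of the 9 members under the alternatives, 726 kept their direction and their side of the threshold, 29 lost their call, 11 gained one and 8 changed sign. Of the 774 values, 432 came from leaving out each array in turn. An array outside the groups compared cannot move the log2 fold change, only its adjusted p. Cebpa in C over A, for example, stayed at 0.72 without each U or SCF array in turn. The replicate block, the fold threshold and the fit of only the arrays compared also keep the fold change. The 726 values are therefore not all separate checks of direction. With a fold threshold of 1.5 (limma's treat), 1972 genes passed in C over A, 386 in SCF over U, 2551 in U over C and 1691 in SCF over C, and 3 members passed in C over A, 0 in SCF over U, 2 in U over C and 4 in SCF over C, since the test then asks for more than any change. In SCF over U limma called 4 members without it, 2 had an unadjusted p under 0.05 with it, and the closest was Batf3 (adjusted p = 0.0536). Changes of sign were in values that had not passed. Median scaling gave 0.38 for Cebpd in C over A, where the median of all genes became 0.49, and for Cebpa 0.08 in SCF over U and 0.04 in SCF over C. The mean of all probes gave 0.12 for Cebpe in SCF over U and -0.03 in U over C, where its probes disagree. When each array was left out, the log2 fold change of Cebpa in SCF over U was between -0.19 and 0.19, and that of Cebpe in SCF over C between -0.10 and 0.19. The cause was not tested for the other changes of sign.

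With the replicate number as a block (replicate block), 3348 genes were higher and 2438 lower in C over A, 1563 and 1541 in SCF over U, 3269 and 3230 in U over C and 2813 and 2463 in SCF over C, and no call of a member changed. Samples with the same number did not deviate together (correlations of -0.19 to 0.21), which gave no sign of pairing, and it is not stated whether C and A samples of one number came from the same mouse. The authors' processed values could be used only within each of their sets. Klf4 in SCF cells, Batf3 in C cells and their second probes lay near the dimmest signal above background, which limits the precision of their fold changes.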
